A study of Mus musculus with 360 samples.

Results

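This account is about the hearts of female mice exposed to 10, 30 or 100 ppm 1,2-dichlorobenzene (1,2-DCB), a benzene ring that carries chlorine atoms on neighbouring carbons. The members are the heart libraries labelled for this compound at these concentrations or at 0 ppm and marked as used in the authors' analysis, 25 of the 360 libraries of the series. They comprise 15 exposed hearts, 5 at each of 10, 30 and 100 ppm, and 10 hearts at 0 ppm. The mice of both groups were B6D2F1/Crl (BDF-1), the F1 hybrid of the C57BL/6 and DBA/2 strains, were 9 weeks old and carried no engineered allele that the labels name. On study day 5 a piece of each heart of about 5 mm3 was put in RNAlater, so a library holds whatever cells lay in that piece. Neither the route of exposure nor the hour of collection is given in the labels. Hearts at 1 and 250 ppm 1,2-DCB (5 and 7 animals) and at 0 and 10 ppm 1,4-dichlorobenzene (1,4-DCB, the isomer with its chlorines on opposite carbons, 10 and 5 animals) are used here where a comparison needs them.

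RNA was read out by TempO-Seq (Mouse S1500+ v1.2), in which pairs of short probes are ligated on a target RNA, amplified and sequenced. Levels are given as CPM, the deposited counts scaled to a common library total, which compare a probe between animals but not one gene with another. Deposited totals were 7.818 M to 14.41 M counts in exposed hearts and 8.602 M to 13.47 M at 0 ppm, so 1 CPM stands for roughly 10 counts at the median exposed depth of 10.32 M. The 13 probes of the cardiomyocyte marker list summed to 200117 to 391469 CPM in exposed hearts, against 228761 to 344349 CPM at 0 ppm, and the tissue label holds. One library stood apart: control animal 4 had the highest level of the 10 controls for Isg15, H2-aa, Cd74 and Lyz2, which mark interferon response, antigen presentation and macrophages, and results for such genes are given with and without it. Pieces also differed in fat, with 4 of 15 exposed and 3 of 10 control hearts above a mean log2 CPM of 1.5 for adipocyte markers.

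The gene groups described here are known for the following. The circadian clock runs in cardiomyocytes as in most cells: the activators CLOCK and BMAL1 drive output genes such as Dbp, while repressors including NFIL3 peak at the opposite time of day. Interferons act through receptors on the cell surface to switch on antiviral genes in nearly any cell, and interferon gamma adds the genes of antigen presentation. The adult heart muscle cell divides rarely, so mitosis genes in heart RNA come from few cells, many of them not muscle.

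Relative to 0 ppm, 80 of 2454 probes passed in the 15 exposed hearts (3.26%), 14 higher (0.57%) and 66 lower (2.69%), by the quasi-likelihood test of edgeR at a Benjamini-Hochberg adjusted p under 0.05. Without control animal 4 the count was 38, with 10 higher and 28 lower. The median log2 change over all probes was -0.01. Among the 14 rises, the largest was that of Dbp, an output gene of the circadian clock. Mthfd1l came next, followed by the clock genes Hlf and Bhlhe40. Falls were found among interferon response genes, mitosis and histone genes and collagen IV, and, when control animal 4 was included, MHC class II genes. Without that animal the interferon list kept 4 of 10 lower calls and the cell cycle list 4 of 8. The calls of the histone genes Hist1h3c and Hist2h3b and of the collagen IV gene Col4a2 were lost as well. Groups of 15 and 10 rarely separated in full: 2 probes (0.0815%), those of Dbp and Bhlhe40, were higher in every exposed heart than in any control, and for 0 probes (0%) was every exposed heart lower than every control.

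Dbp, a transcription factor that is a direct output of the clock, had 224, 252, 285, 327 and 337 CPM at 10 ppm, 192, 252, 255, 334 and 371 CPM at 30 ppm and 130, 155.1, 246, 271 and 303 CPM at 100 ppm. The 10 hearts at 0 ppm had 21.7 CPM at the lowest, a median of 56.1 CPM and 111.01 CPM at the highest. Every exposed heart thus lay above every control, and the exposed mean was 262 ± 68.2 CPM against 57.4 ± 25.9 CPM at 0 ppm (SD, n = 15 and 10). This was a log2 change of 2.18 ± 0.29 (SE, edgeR, adjusted p = 9.95e-08). Across 10 to 100 ppm no slope was detectable: the change per 10-fold concentration was -0.37 on the log2 scale, with a 95% interval of -1.18 to 0.44. At 1 ppm the 5 hearts had 23.1 to 61.7 CPM, within the range of the controls.

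Of the 6 clock probes tested, from 5 genes, 4 were higher and 1 was lower, with a median log2 change of 0.82. Over all probes 0.57% passed as higher and 2.69% as lower. Hlf, which belongs to the same PAR bZIP family as Dbp and binds the same D-box sites, had 56.6 to 70.3 CPM at 10 ppm, 49.6 to 92.9 CPM at 30 ppm and 28 to 64.3 CPM at 100 ppm, against 23.4 to 39.7 CPM at 0 ppm. In 13 of 15 exposed hearts it was above all controls, and its log2 change was 0.94 ± 0.14 (SE, edgeR, adjusted p = 2.67e-06). Bhlhe40 encodes a repressor of the CLOCK and BMAL1 complex that this complex itself induces. It had 465 to 520 CPM at 10 ppm, 424 to 518 CPM at 30 ppm and 350 to 557 CPM at 100 ppm, against 209 to 312 CPM at 0 ppm, a log2 change of 0.80 ± 0.10 (SE, edgeR, adjusted p = 2.17e-08). A second probe of Bhlhe40 gave 0.83 ± 0.13.

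Nfil3, the repressor that competes with DBP and HLF for D-box sites, moved the other way. It had 17.7, 19, 19.3, 21.2 and 22 CPM at 10 ppm, 20.3 to 25.4 CPM at 30 ppm and 18.2 to 29.2 CPM at 100 ppm, against 25.2 CPM at the lowest, a median of 39.2 CPM and 60.7 CPM at the highest at 0 ppm. In 13 of 15 exposed hearts it was below every control. It changed by -0.94 ± 0.12 on the log2 scale (SE, edgeR, adjusted p = 2.36e-08). Cry1, a core repressor of the clock, did not pass (log2 change -0.35 ± 0.13, edgeR adjusted p = 0.13). The same 4 clock probes passed as higher and the same 1 as lower at 10, 30 and 100 ppm each. These comparisons share their 10 control animals, and at 100 ppm the second Bhlhe40 probe lost its call without animal 403 (log2 change 0.71, edgeR adjusted p = 0.065).

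Cdkn1a had the smallest p of all probes in the pooled comparison. It encodes p21, an inhibitor of cyclin-dependent kinases that p53 and several hormones induce. Its levels were 8.68, 10.6, 10.7, 10.9 and 13.6 CPM at 10 ppm, 6.84, 7.31, 10.4, 10.6 and 10.7 CPM at 30 ppm and 8.10, 10.8, 13.1, 20.4 and 24.2 CPM at 100 ppm, against 20.2 CPM at the lowest, a median of 31 CPM and 56.7 CPM at the highest at 0 ppm. In 13 of 15 exposed hearts it was below every control, and the other 2 were at 100 ppm. The test gave a log2 change of -1.56 ± 0.18 (SE, edgeR, adjusted p = 9.25e-09). Of 20 probes of the p53 list, 2 passed, both lower, where 2.69% of all probes passed as lower. They were Cdkn1a and Fas, a death receptor (log2 change -0.31, edgeR adjusted p = 0.0111), and the median of the list was -0.04. Of 11 probes of the glucocorticoid list, Cdkn1a alone passed. With the Dbp level of each heart as a covariate, 18 probes passed pooled in place of 80, and 9 of the 80 were among them. Under that covariate 1 probe passed at 10 ppm, 2 at 30 ppm and 26 at 100 ppm. As Dbp separates exposed hearts from controls in full, its level and exposure cannot be fully told apart in such a fit.

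**Figure D1:**
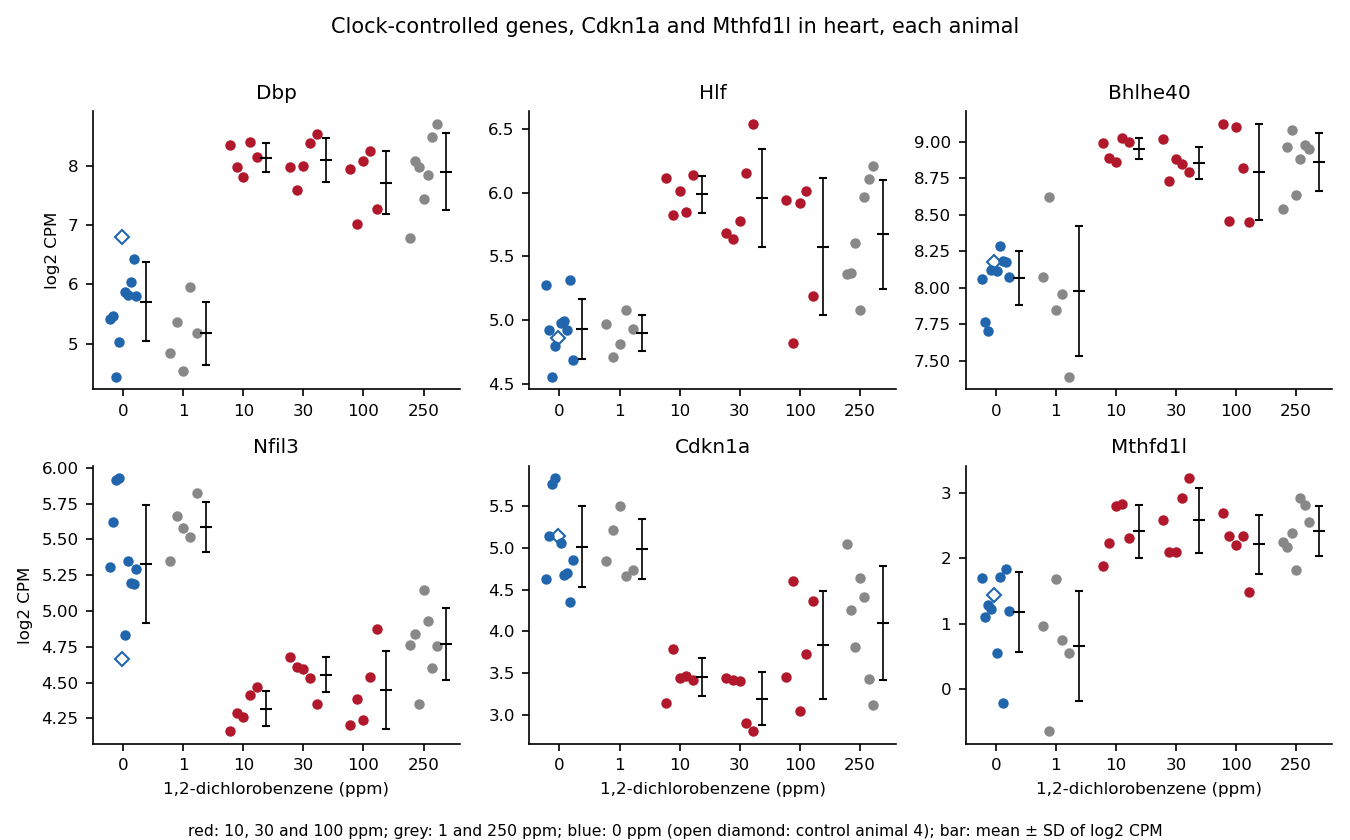
Levels in log2 CPM (vertical axis) of Dbp, Hlf, Bhlhe40, Nfil3, Cdkn1a and Mthfd1l in each heart by concentration of 1,2-DCB in ppm (horizontal axis, 0 to 250 ppm in order); red points are hearts at 10, 30 and 100 ppm, grey points hearts at 1 and 250 ppm, blue points hearts at 0 ppm, the open diamond control animal 4, and bars the mean ± SD of log2 CPM. The red points of Dbp and Bhlhe40 lie above all blue points, and most red points of Nfil3 and Cdkn1a lie below them.

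The other rises were in single genes, while the lists of mitochondrial respiration, glycolysis and cardiomyocyte genes had 0 calls by edgeR, where 3.26% of all probes passed. Mthfd1l, the mitochondrial enzyme that releases formate for one-carbon metabolism, had 3.55 to 6.98 CPM at 10 ppm, 4.12 to 9.15 CPM at 30 ppm and 2.65 to 6.31 CPM at 100 ppm, against 0.717 to 3.41 CPM at 0 ppm, a log2 change of 1.22 ± 0.20 (SE, edgeR, adjusted p = 2.84e-05). Tcap, or telethonin, caps titin at the Z-disc of the sarcomere. It averaged 1510 ± 330 CPM in exposed hearts and 854 ± 191 CPM at 0 ppm (SD, n = 15 and 10), with 14 of 15 exposed hearts above all controls and a log2 change of 0.81 ± 0.18 (SE, edgeR, adjusted p = 0.00236). Sertad1, a coactivator of E2F, averaged 44.8 ± 4.40 CPM in exposed hearts and 33.5 ± 4.09 CPM at 0 ppm, a log2 change of 0.42 ± 0.07 (SE, edgeR, adjusted p = 4.36e-05). G0s2, the inhibitor of adipose triglyceride lipase, averaged 373 ± 66.6 CPM in exposed hearts and 274 ± 53.4 CPM at 0 ppm, with a log2 change of 0.44 ± 0.10 (SE, edgeR, adjusted p = 0.00385). The remaining rises named by rule were 0.62 in Gm3776, 0.29 in Ccdc85b, 0.20 in Nme1, a nucleoside diphosphate kinase, and 0.20 in Atg3, an enzyme of autophagy, on the log2 scale. Without control animal 4, Gm3776 (log2 change 0.58, edgeR adjusted p = 0.0847) and Atg3 (0.18, adjusted p = 0.0669) no longer passed. Nor did they without control animal 3, at the same log2 change of 0.58 for Gm3776 (adjusted p = 0.0514) and at 0.17 for Atg3 (adjusted p = 0.0514), and Gm3776 also not without animal 404 of the 100 ppm group (0.57, adjusted p = 0.0524).

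Part of the interferon response genes were lower in exposed hearts. Of 22 probes of the interferon list tested, 10 passed as lower and 0 as higher, where 2.69% of all probes passed as lower, 20 had a negative log2 change, and the median was -0.42. The promoters of several of these genes hold the sequence that the interferon-activated factor complex binds, the interferon-stimulated response element, whose core is GAAA, any pair of bases (NN), and GAAA. The sequences that follow are the 250 bases before the annotated start of 3 genes of the list that passed, from RefSeq on GRCm38.p6, read 5′ to 3′ along the gene's strand, with matches to this core on either strand in capitals (TTTC, NN and TTTC where the match is on the opposite strand). Isg15 lies at chr4:156200819-156201068 on the minus strand, Ifit1 at chr19:34640639-34640888 on the plus strand and Rsad2 at chr12:26456453-26456702 on the minus strand.
Isg15: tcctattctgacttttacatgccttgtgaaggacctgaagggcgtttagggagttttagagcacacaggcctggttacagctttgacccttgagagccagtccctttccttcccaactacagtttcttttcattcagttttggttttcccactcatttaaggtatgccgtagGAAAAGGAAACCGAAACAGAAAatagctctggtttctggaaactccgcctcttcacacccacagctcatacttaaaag
Ifit1: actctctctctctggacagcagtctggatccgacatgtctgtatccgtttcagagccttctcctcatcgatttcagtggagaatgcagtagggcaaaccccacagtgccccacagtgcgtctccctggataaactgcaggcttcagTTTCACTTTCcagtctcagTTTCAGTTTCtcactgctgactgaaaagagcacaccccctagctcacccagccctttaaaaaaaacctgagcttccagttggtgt
Rsad2: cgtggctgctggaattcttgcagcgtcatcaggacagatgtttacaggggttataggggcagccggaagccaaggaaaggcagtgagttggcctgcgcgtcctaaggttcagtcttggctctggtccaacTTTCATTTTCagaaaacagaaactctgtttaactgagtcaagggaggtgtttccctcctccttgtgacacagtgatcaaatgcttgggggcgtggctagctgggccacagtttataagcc
The window of Isg15 held 3 matches that overlap, with first bases 78, 72 and 66 bases before the start. Ifit1 held 2, at 104 and 85 bases, and Rsad2 held 1, at 120 bases. Of the genes of the list that passed, 8 of 10 had a RefSeq promoter entry and 4 of these 8 (50%) held the core. Of 10 genes of the list that were tested, not called and matched, 4 held it (40%), and of all 27025 genes with a window 3.46% did. A match describes the sequence and not binding in these hearts.

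Isg15, a ubiquitin-like protein that is joined to other proteins during the antiviral response, had 29.2, 36.1, 36.9, 38 and 43.5 CPM at 10 ppm, 30.3, 31, 31.3, 36.5 and 42 CPM at 30 ppm and 27.2, 29.4, 30.3, 33.9 and 36.6 CPM at 100 ppm. The hearts at 0 ppm had 34.4 CPM at the lowest, a median of 45.9 CPM and 85.9 CPM at the highest, which was control animal 4. Exposed and control hearts overlapped, with 8 of 15 exposed hearts below every control. The log2 change was -0.64 ± 0.11 (SE, edgeR, adjusted p = 4.21e-05) and -0.53 ± 0.10 without control animal 4 (edgeR adjusted p = 0.000554).

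Ifi44, an interferon-induced antiviral gene, had 13.4 to 21.1 CPM at 10 ppm, 9.71 to 21.2 CPM at 30 ppm and 11.7 to 19.8 CPM at 100 ppm, against 20.3 to 51 CPM at 0 ppm. In 12 of 15 exposed hearts it was below every control. The log2 change was -0.88 ± 0.13 (SE, edgeR, adjusted p = 4.32e-06), and -0.79 ± 0.13 without control animal 4 (edgeR adjusted p = 4.17e-05). Rsad2, which encodes the antiviral enzyme viperin, averaged 6.57 ± 1.88 CPM in exposed hearts and 12.1 ± 3.32 CPM at 0 ppm (SD, n = 15 and 10). Its log2 change was -0.88 ± 0.15 (SE, edgeR, adjusted p = 4.36e-05), and -0.79 ± 0.15 without control animal 4 (edgeR adjusted p = 0.000512). Usp18, the protease that removes ISG15 from proteins, averaged 7.99 ± 1.99 CPM in exposed hearts and 11.8 ± 3.05 CPM at 0 ppm, with a log2 change of -0.57 (edgeR adjusted p = 0.00242), and of -0.52 without control animal 4 (edgeR adjusted p = 0.015).

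These 4 genes passed with and without control animal 4. With hearts at 1 ppm in place of 0 ppm, 7 of the 22 passed as lower, where 38 of all 2454 probes did. Rsad2 (log2 change -0.53, edgeR adjusted p = 0.172) and Usp18 (-0.49, adjusted p = 0.107) were not among them. With the 25 libraries fitted alone 6 of 20 passed as lower, where 36 of all 2292 probes did. The other 6 that passed in the main fit lost their call without control animal 4. Among them were Ifit1 (log2 change -0.65) and Ifit2 (-0.41), whose proteins bind foreign RNA. Others were Gbp3 (-0.61), a guanylate-binding protein, Psmb8 (-0.36), a subunit of the immunoproteasome, and Irf7 (-0.62), a transcription factor of interferon genes. Without that animal the log2 changes of these 5 were -0.54, -0.34, -0.44, -0.16 and -0.55 in the same order, and the median of the list was -0.30. The calls of Psmb8 and Irf7 were also lost without some other single animals, in 4 and 15 of 25 fits in all. Mx1 (-1.23, edgeR adjusted p = 0.15), Ifit3 (-0.62, adjusted p = 0.064) and Bst2 (-0.45, adjusted p = 0.06), which also restrict viruses, did not pass. Among the largest falls of the whole comparison was Oasl1, which represses translation of Irf7 in mice, at 1.54 ± 0.626 CPM in exposed hearts and 3.37 ± 0.764 CPM at 0 ppm, a log2 change of -1.16 (edgeR adjusted p = 0.000333).

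Falls of Tgtp1 (log2 change -1.18, edgeR adjusted p = 0.00929) and Tgtp2 (-1.01, adjusted p = 0.00646), GTPases induced by interferon gamma, were among the largest as well. Their near-identical copies may share reads, so the split between them is uncertain. Control animal 4 had 43.8 CPM of Tgtp1, where the next control had 15.7 CPM, and without that animal neither passed (edgeR adjusted p = 0.184 for Tgtp1 and 0.122 for Tgtp2). Further interferon-induced genes passed that are not on the list and were chosen after their values were seen: Cmpk2 (log2 change -0.64), Herc6 (-0.47), Igtp (-0.79), Irgm2 (-0.57), Gbp6 (-0.61) and Zbp1 (-1.16), in the main comparison. Cmpk2, a mitochondrial nucleotide kinase that neighbours Rsad2, kept its call without control animal 4 (-0.61, edgeR adjusted p = 0.000765), as did Herc6, an ISG15 ligase in mice (-0.35, adjusted p = 0.0301).

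MHC class II genes and macrophage markers were lower in the same hearts, but these calls were lost without control animal 4, and also with hearts at 1 ppm in place of 0 ppm, against which 0 of 3 class II and 0 of 9 macrophage probes passed by edgeR (median log2 changes of -0.58 and -0.29). Against 1 ppm, 38 of all 2454 probes passed as lower. H2-aa, the alpha chain of a class II molecule, had 21.2, 22.2, 23.9, 24.2 and 42 CPM at 10 ppm, 16.6, 17, 18.7, 22.4 and 24.7 CPM at 30 ppm and 18.4, 24.7, 27.5, 29.5 and 34.8 CPM at 100 ppm, against 18 CPM at the lowest, a median of 38.5 CPM and 204 CPM at the highest at 0 ppm. The 204 CPM were those of control animal 4, and the next control had 49.3 CPM. The log2 change was -1.10 ± 0.22 (SE, edgeR, adjusted p = 0.00053) with it and -0.54 ± 0.16 without it (edgeR adjusted p = 0.0847). Cd74, the invariant chain that escorts class II molecules, averaged 331 ± 88 CPM in exposed hearts, against 277 CPM at the lowest, a median of 464 CPM and 2242 CPM in control animal 4 at 0 ppm. Its log2 change was -0.94 ± 0.20 (SE, edgeR, adjusted p = 0.00104) with that animal and -0.47 ± 0.15 without it (edgeR adjusted p = 0.103).

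Of 3 class II probes, 2 passed as lower with control animal 4 and 0 without it (edgeR), with medians of -0.94 and -0.47. With that animal in the fit 2.69% of all probes passed as lower. H2-dma, which loads peptides on class II molecules, had a log2 change of 0.41 and did not pass. For the class I gene H2-q6 the log2 change was -0.95 (edgeR adjusted p = 0.0163), and -0.53 without control animal 4 (adjusted p = 0.325); its probes resemble those of H2-q7 and their reads may be shared.

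Of 9 macrophage marker probes, 3 passed as lower, where 2.69% of all probes did. They were Lyz2, the lysozyme of myeloid cells, and C1qb and C1qc, chains of the complement component that tissue macrophages make. Of the 9, 2 had a positive log2 change, and the median was -0.24. Lyz2 averaged 739 ± 152.2 CPM in exposed hearts and 1068 ± 462 CPM at 0 ppm (SD, n = 15 and 10), a log2 change of -0.53 ± 0.13 (SE, edgeR, adjusted p = 0.00652). Without control animal 4 it was -0.33 (edgeR adjusted p = 0.147), and 0 of the 9 passed. With that animal kept and hearts high in adipocyte markers left out, 5 of the 9 passed as lower, where 91 of all 2452 probes did. From the 25 libraries alone 1 of the 9 passed as lower, where 36 of all 2292 probes did. The calls of C1qb and C1qc were lost in 8 and 14 of 25 fits that left out 1 animal. The 9 probes together summed to 880 to 1561 CPM in exposed hearts, with a median of 998 CPM, against 1097 to 3246 CPM and a median of 1377 CPM at 0 ppm. In bulk RNA, fewer macrophages and less RNA of these genes per macrophage cannot be told apart. Lyz2 weighed most in this sum, at a median of 798 CPM over the 25 hearts, with C1qb next at 87.5 CPM. Whether the summed level went with the interferon and class II genes from animal to animal was not tested, nor was its part in their results. The 5 lymphocyte probes had 0 calls, and the markers of this type summed to 2.08 to 32.4 CPM in exposed hearts, against 3.11 to 13.6 CPM at 0 ppm.

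**Figure D2:**
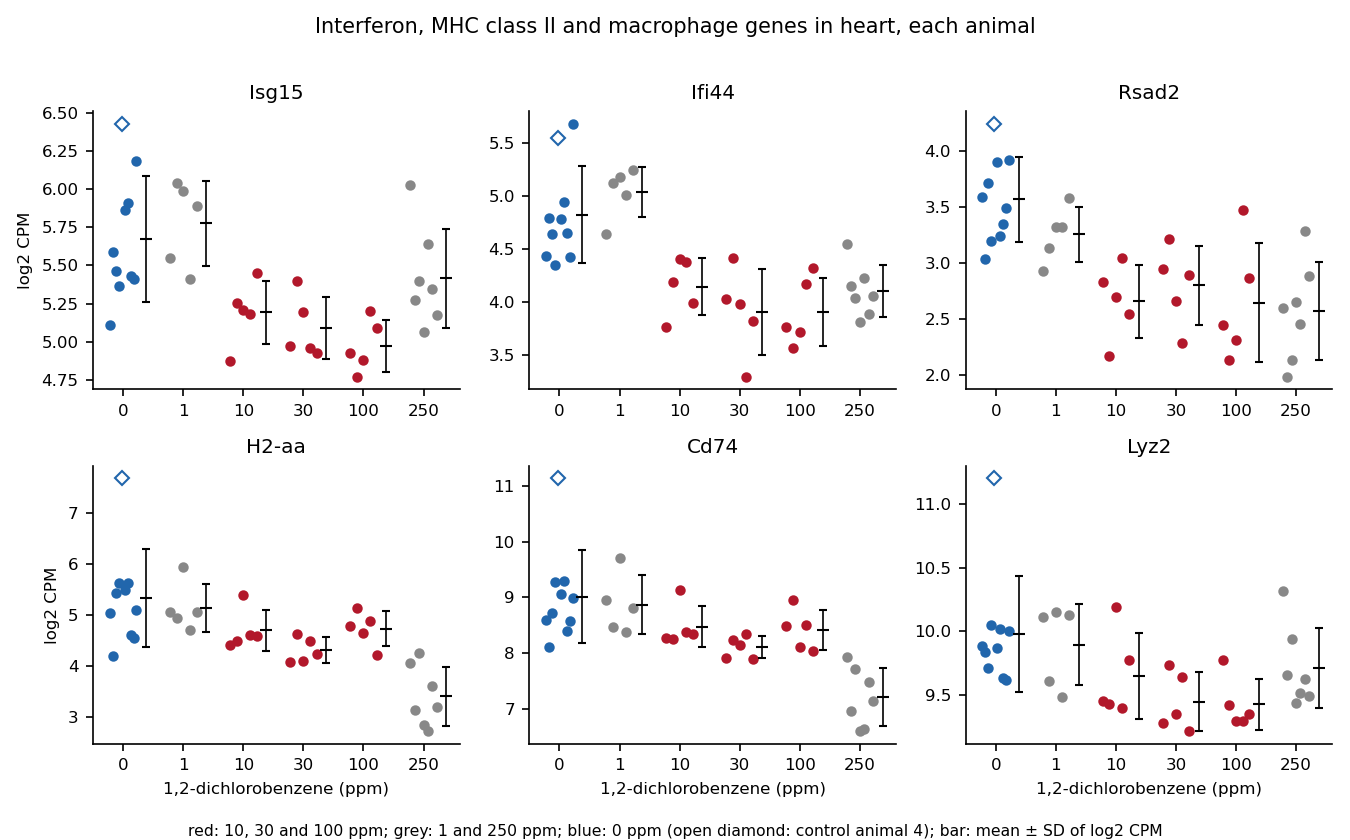
Levels in log2 CPM (vertical axis) of Isg15, Ifi44, Rsad2, H2-aa, Cd74 and Lyz2 in each heart by concentration of 1,2-DCB in ppm (horizontal axis); red points are hearts at 10, 30 and 100 ppm, grey points hearts at 1 and 250 ppm, blue points hearts at 0 ppm, the open diamond control animal 4, and bars the mean ± SD of log2 CPM. Control animal 4 is the highest control in each panel except Ifi44, where it is the second highest, and it stands out most in H2-aa (204 CPM), Cd74 (2242 CPM) and Lyz2 (2353 CPM).

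**Figure D3:**
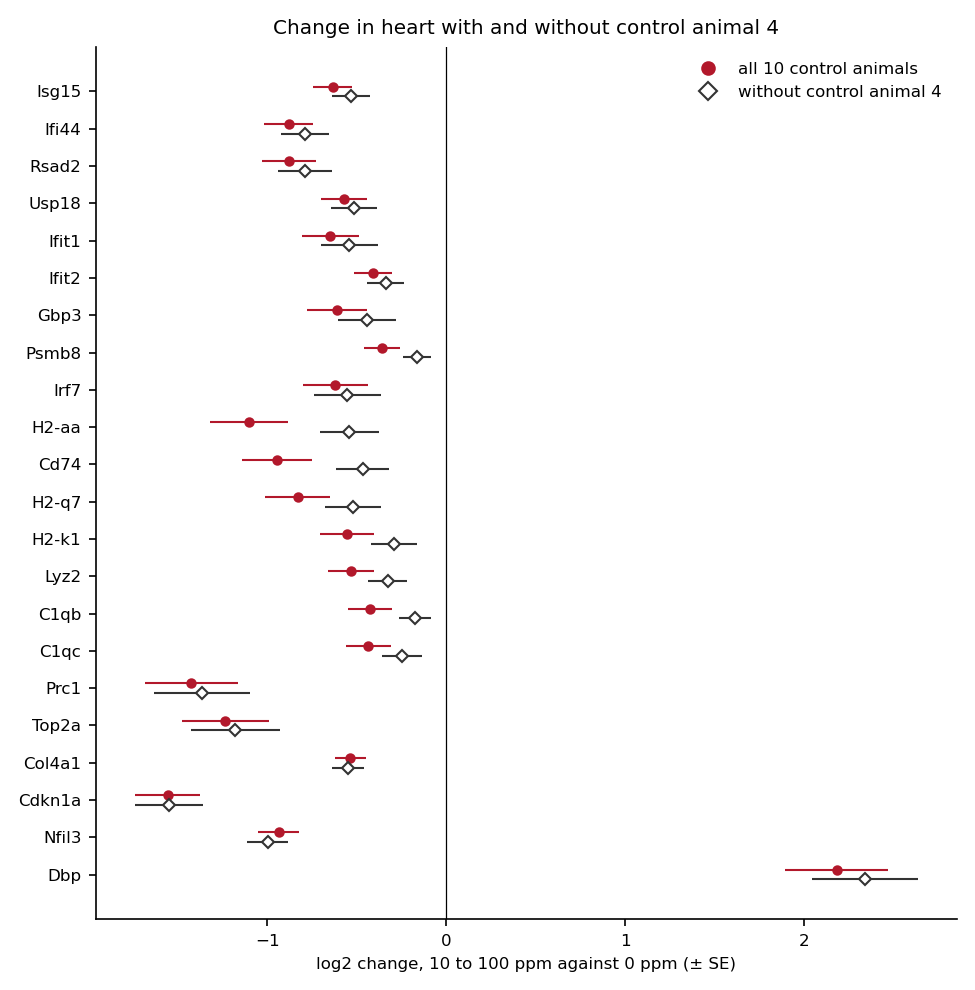
Pooled log2 change of 10, 30 and 100 ppm against 0 ppm for the genes named on the axis, with control animal 4 in the fit and with it left out; bars are standard errors. The changes of Dbp, Nfil3, Cdkn1a, Prc1, Top2a and Col4a1 are alike in both fits (2.18 and 2.34 in Dbp, -0.54 and -0.55 in Col4a1), while that of H2-aa is -1.10 with that animal and -0.54 without it.

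Some genes of mitosis were lower, at low levels. Of 59 probes of the cell cycle list, 8 passed as lower and 0 as higher, where 2.69% of all probes passed as lower. The other 51 did not pass, 18 of the 59 had a positive change, and the median was -0.21. With the 25 libraries fitted alone 4 of 49 passed as lower, where 36 of all 2292 probes did. Prc1, which bundles microtubules of the central spindle during cytokinesis, had 0.0906, 0.978, 1.42, 1.95 and 2.22 CPM at 10 ppm, 0.742, 0.772, 0.801, 1.58 and 2.34 CPM at 30 ppm and 1.98, 2.46, 2.53, 3.15 and 3.36 CPM at 100 ppm, against 2.37 CPM at the lowest, a median of 4.06 CPM and 7.08 CPM at the highest at 0 ppm. Hearts at 10 and 30 ppm were below every control, while those at 100 ppm overlapped with them. The log2 change was -1.43 ± 0.26 (SE, edgeR, adjusted p = 0.000136). Its slope over 10 to 100 ppm was 1.04 per 10-fold concentration, with a 95% interval of 0.19 to 1.89, which did not pass over all probes (edgeR adjusted p = 0.729).

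Top2a, the topoisomerase that untangles replicated chromosomes, had 0.906, 2.22, 2.93, 3.08 and 3.82 CPM at 10 ppm, 1.65, 1.80, 2.37, 3.30 and 5.12 CPM at 30 ppm and 2.41, 3.70, 4.52, 5.25 and 5.77 CPM at 100 ppm, against 3.51 CPM at the lowest, a median of 6.12 CPM and 14.3 CPM at the highest at 0 ppm. In 9 of 15 exposed hearts it was below every control, and its log2 change was -1.23 ± 0.24 (SE, edgeR, adjusted p = 0.000507). Promoters of mitosis genes are known for CCAAT boxes, which NF-Y binds. The sequence of Top2a that follows covers the 250 bases before its start, from RefSeq on GRCm38.p6. It lies at chr11:99024190-99024439 on the minus strand, with CCAAT on either strand in capitals (ATTGG on the opposite strand).
Top2a: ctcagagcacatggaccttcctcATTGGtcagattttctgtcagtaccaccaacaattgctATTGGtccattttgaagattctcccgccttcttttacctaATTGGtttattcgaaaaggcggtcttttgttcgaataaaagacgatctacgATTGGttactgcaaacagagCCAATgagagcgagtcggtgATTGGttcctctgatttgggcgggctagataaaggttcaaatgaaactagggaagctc
The window held 6 boxes, the first 227 and the last 58 bases before the start. Among the list's genes that passed, 7 of 8 (87.5%) held at least 1 CCAAT in their window, as did 27 of 36 matched genes that were tested and not called (75%) and 37.5% of all 27025 genes with a window. The shares describe the letters in these windows and say nothing about binding in these hearts.

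The other 6 cell cycle genes that passed were the checkpoint kinase gene Bub1 (log2 change -1.91), the kinase gene Melk (-1.61), the kinetochore motor gene Cenpe (-0.84), the proliferation marker Mki67 (-1.94), the mitotic kinase gene Plk1 (-0.90) and Cdc20 (-0.62), the activator of the anaphase-promoting complex. All of these but Cdc20 averaged under 5 CPM in both groups: Bub1 averaged 0.392 ± 0.325 CPM in exposed hearts and 1.39 ± 0.97 CPM at 0 ppm (SD, n = 15 and 10). The calls of Bub1 and Melk held whichever single animal was left out, whereas those of Mki67, Cenpe, Plk1 and Cdc20 were lost in 1, 3, 6 and 11 of 25 such fits, in each case including the fit without control animal 4. Ccnb1, cyclin B (log2 change -1.62, edgeR adjusted p = 0.065), and Aurkb, a kinase of chromosome segregation (-1.02, adjusted p = 0.066), did not pass. Fam64a, a gene of the metaphase to anaphase step, averaged 1.34 ± 1.15 CPM in exposed hearts and 3.60 ± 2.33 CPM at 0 ppm, a log2 change of -1.53 (edgeR adjusted p = 0.0025). The kinetochore genes Nuf2 (-1.29) and Casc5 (-1.07) and the kinase gene Pbk (-1.98), which are not on the list and were chosen after their values were seen, passed as well, Pbk not without control animal 5 (-1.62, edgeR adjusted p = 0.0682).

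Histone transcripts, which cells make mainly during DNA replication, gave a measure at higher counts, and were also chosen after their values were seen. Hist1h3a had 72.7 to 115.9 CPM at 10 ppm, 60.9 to 110.7 CPM at 30 ppm and 98.8 to 148.6 CPM at 100 ppm, against 110.3 to 269 CPM at 0 ppm. Its log2 change was -0.74 ± 0.16 (SE, edgeR, adjusted p = 0.0021). Probes of Hist1h2bp, Hist1h3c and Hist2h3b passed too (log2 changes of -0.33, -0.46 and -0.44), and reads of these near-identical genes may be shared. Hist1h3c and Hist2h3b lost their calls without control animal 4 (edgeR adjusted p = 0.103 and 0.114) and without control animal 5 (0.107 and 0.0871). Without control animal 4, 4 of the 8 cell cycle calls were left, with log2 changes of -1.37 for Prc1 and -1.18 for Top2a.

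Of 32 extracellular matrix probes, 2 passed as lower, those of the collagen IV chains, and of 10 endothelial probes 1 did, where 2.69% of all probes passed as lower. Col4a1, a chain of the collagen IV of basement membranes, had 178, 188, 199, 201 and 203 CPM at 10 ppm, 147.8, 181, 205, 213 and 235 CPM at 30 ppm and 178, 186, 206, 216 and 246 CPM at 100 ppm, against 227 CPM at the lowest, a median of 271 CPM and 435 CPM at the highest at 0 ppm. In 13 of 15 exposed hearts it was below every control, and the log2 change was -0.54 ± 0.09 (SE, edgeR, adjusted p = 1.45e-05). Col4a2, its partner chain, fell by 0.27 on the log2 scale (edgeR adjusted p = 0.0338), a call lost in 13 of 25 fits that left out 1 animal. The median of the extracellular matrix list was -0.19. When the 22 of all 72 hearts high in adipocyte markers, 7 of them among the 25, were left out of the fit, 8 of 31 matrix probes passed as lower, with a median of -0.29. In that fit 91 of all 2452 probes passed as lower. Cldn5, the claudin of endothelial tight junctions, averaged 3.17 ± 1.06 CPM in exposed hearts and 5.84 ± 1.24 CPM at 0 ppm, a log2 change of -0.90 ± 0.15 (SE, edgeR, adjusted p = 3.29e-05). The summed level of the 10 endothelial probes was 924 to 1228 CPM in exposed hearts, against 949 to 1322 CPM at 0 ppm, and all 10 had a negative log2 change (median -0.15). All 10 fibroblast marker probes had one too (median -0.16), with 0 calls by edgeR, and summed to 980 to 2497 CPM in exposed hearts, against 1290 to 2272 CPM at 0 ppm. The part of these cell types in the matrix and endothelial results was not tested.

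**Figure D4:**
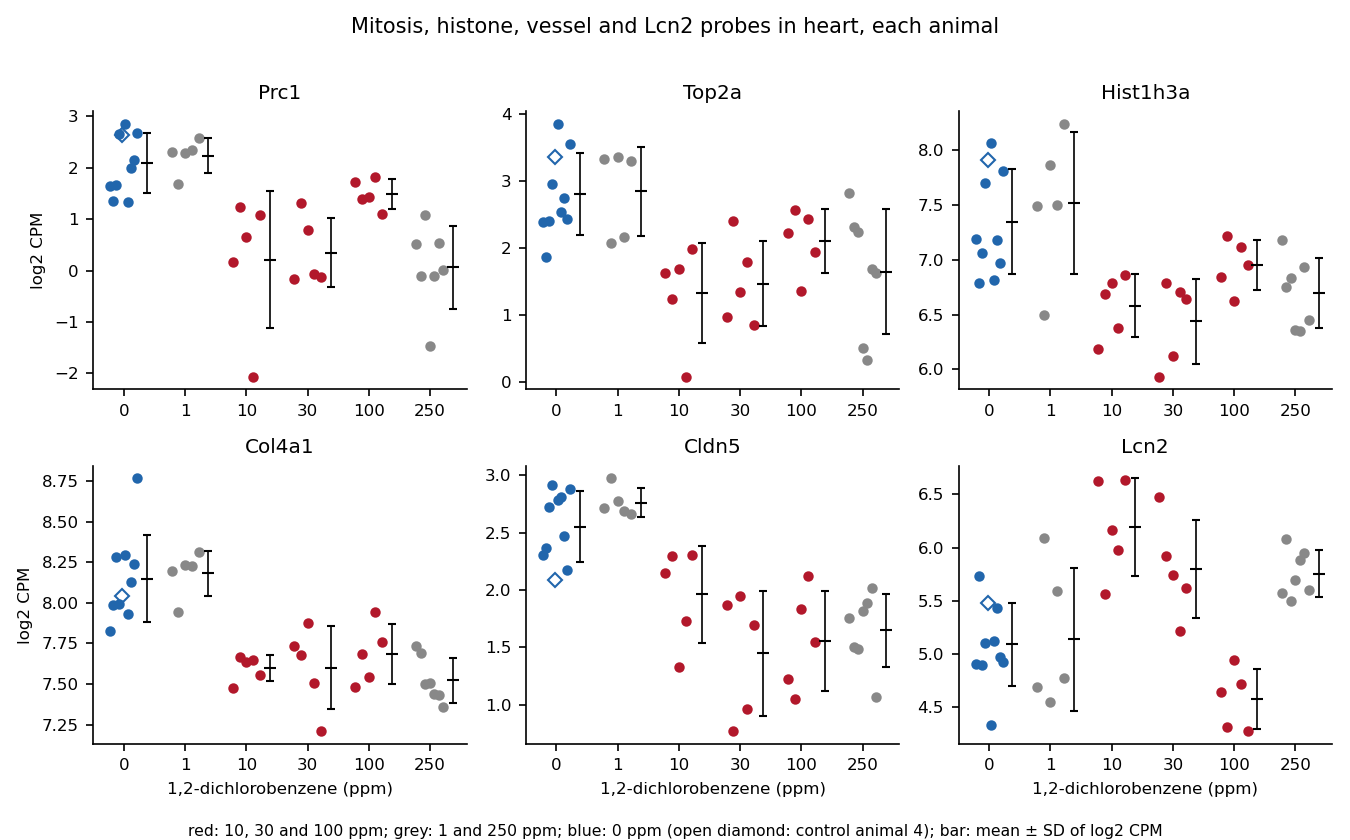
Levels in log2 CPM (vertical axis) of Prc1, Top2a, Hist1h3a, Col4a1, Cldn5 and Lcn2 in each heart by concentration of 1,2-DCB in ppm (horizontal axis); red points are hearts at 10, 30 and 100 ppm, grey points hearts at 1 and 250 ppm, blue points hearts at 0 ppm, the open diamond control animal 4, and bars the mean ± SD of log2 CPM. Lcn2 is highest at 10 ppm (47 to 99.6 CPM) and within the control range or just under it at 100 ppm (19.2 to 30.6 CPM).

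Most pathways considered for a chlorinated solvent gave 0 calls in the pooled comparison by edgeR, where 3.26% of all probes passed. At that share a short list often has 0 calls, so such a count does not show that a pathway was unchanged. Among these were the 29 probes of NRF2 targets, the genes of glutathione and quinone detoxification (median log2 change 0.03), the 8 probes of targets of the xenobiotic receptors CAR and PXR and the 4 of AhR targets. The 13 cardiomyocyte probes (median 0.01), the 9 of cardiac stress (median -0.19), the 25 of mitochondrial respiration (median 0.05), the 13 of glycolysis and the 5 of ion channels had none either. The same was found for hypoxia (11 probes), heat shock (21), the unfolded protein response (19), inflammation (31), cholesterol synthesis (19), metal and oxidant response (12) and immediate early genes (16). Over all 2454 probes, 328 had an unadjusted p under 0.05, so changes too small for these 25 animals cannot be told from none.

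Among markers of other tissues and cells, 0 probes passed for adipocytes (4 tested), red cells (9), hepatocytes (5), lung epithelium (3), neutrophils (4), fibroblasts (10), smooth muscle (4) and skeletal muscle (9). Over all probes 3.26% passed, so lists this short can have 0 calls without being unlike the rest. Red cell markers, mainly globins, summed to 34266 to 233851 CPM in exposed hearts, against 57634 to 265135 CPM at 0 ppm. Adipocyte markers summed to 5.56 to 146.8 CPM in exposed hearts, against 7.21 to 215 CPM at 0 ppm. Hepatocyte markers summed to 6.22 to 89.2 CPM in exposed hearts, against 7.5 to 118.9 CPM at 0 ppm. Blood and fat content thus varied widely within both groups, and the neutrophil marker Cxcr2 and the fast muscle myosin Myh4 were at 0 in all 25 hearts.

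At single concentrations, 24 probes passed at 10 ppm (0.978%), 50 at 30 ppm (2.04%) and 18 at 100 ppm (0.733%), against the same 10 controls. At 1 ppm 0 probes passed (0%) by edgeR, where 102 had an unadjusted p under 0.05. DESeq2 also called 0, and 94 had such a p. By direction there were 9 higher and 15 lower at 10 ppm, 13 and 37 at 30 ppm, and 7 and 11 at 100 ppm. Counts are sensitive to single animals: 12 were left at 10 ppm without animal 202, 24 at 30 ppm without animal 305 and 7 at 100 ppm without animal 403, and leaving out control animal 4 left 20, 40 and 13. At 30 ppm Aurkb (log2 change -2.16, edgeR adjusted p = 0.00974) and Ccnb1 (-3.62, adjusted p = 0.0153), which did not pass in the pooled comparison, passed as lower. Both rest on few counts, so the size of these changes is uncertain. Over the 15 exposed hearts each averaged under 1 CPM, which is roughly 10 counts, and the lowest heart had 0. At 0 ppm Ccnb1 averaged under 1 CPM as well.

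Only Lcn2 passed in the trend from 10 to 100 ppm, 1 of 2454 probes (0.0407%), while 5.95% had an unadjusted p under 0.05. Lcn2 encodes lipocalin 2, a secreted protein that binds bacterial siderophores and that inflamed tissue and neutrophils release. It had 47, 62.9, 71.8, 98.5 and 99.6 CPM at 10 ppm, 36.9, 49.2, 53.4, 60.6 and 89.1 CPM at 30 ppm and 19.2, 19.7, 24.8, 26.1 and 30.6 CPM at 100 ppm. Every heart at 10 and 30 ppm exceeded every heart at 100 ppm, and the slope was -1.67 ± 0.29 on the log2 scale per 10-fold concentration, with a 95% interval of -2.25 to -1.09 (edgeR adjusted p = 0.000712). At 0 ppm the median was 32.8 CPM and the highest 52.9 CPM. Against these, the log2 change was 1.12 ± 0.24 at 10 ppm (SE, edgeR, adjusted p = 0.00396), 0.72 at 30 ppm (adjusted p = 0.0983) and -0.54 at 100 ppm (adjusted p = 0.573), and it did not pass pooled (0.43, adjusted p = 0.239). When the 22 of all 72 hearts high in adipocyte markers, 7 of them among the 25, were left out of the fit, the slope was -1.47 and did not pass (edgeR adjusted p = 0.282).

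Between 250 and 100 ppm, groups that share no control, 42 probes differed (1.71%), 23 higher and 19 lower (0.774%) at 250 ppm, and 21 to 47 differed when 1 animal was left out. Ccl2, the chemokine that draws monocytes, had 81.7 CPM at the lowest, a median of 134.9 CPM and 390 CPM at the highest at 250 ppm, against 32.8, 37.3, 43.7, 57.4 and 62.8 CPM at 100 ppm. Its log2 difference was 1.95 ± 0.26 (SE, edgeR, adjusted p = 4.48e-07). The related chemokine gene Ccl7 (1.70, adjusted p = 0.000476) and the metal-binding gene Mt1 (0.56, adjusted p = 0.000115) were higher at 250 ppm too. Lcn2 was also higher, at 45.2 to 67.7 CPM at 250 ppm against 19.2 to 30.6 CPM at 100 ppm (log2 difference 1.17, edgeR adjusted p = 0.00853).

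Of the 3 class II probes, 2 passed as lower at 250 ppm than at 100 ppm, where 0.774% of all probes did. H2-aa had 6.43 to 18.8 CPM at 250 ppm, against 18.4 to 34.8 CPM at 100 ppm, a log2 difference of -1.26 ± 0.32 (SE, edgeR, adjusted p = 0.0208). Cd74 had 96.9 to 244 CPM at 250 ppm, against 264 to 493 CPM at 100 ppm, so the groups did not overlap, and the log2 difference was -1.17 ± 0.28 (SE, edgeR, adjusted p = 0.0122). Control animal 4 enters neither of these values. Of 9 red cell marker probes, 1 passed as lower in the same comparison, all 9 had a negative log2 difference (median -1.21), and they summed to 5761 to 64025 CPM at 250 ppm, against 34266 to 85790 CPM at 100 ppm. Macrophage markers summed to 1027 to 1803 CPM at 250 ppm, against 908 to 1256 CPM at 100 ppm. The part of blood content in the class II difference was not tested. The clock genes did not pass in this comparison, and Dbp had 110 to 418 CPM at 250 ppm.

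At 10 ppm, the 1 concentration above 1 ppm that both isomers share, the change with 1,2-DCB could be set against that with 1,4-DCB, each from its own 0 ppm animals. The difference of the changes passed for 28 probes (1.14%), 7 higher and 21 lower (0.856%) with 1,2-DCB, in the 1 pair of compounds compared, and for 13 to 35 when 1 animal was left out. Dbp had 224 to 337 CPM with 1,2-DCB and 21.6, 30.7, 34.1, 85.8 and 94 CPM with 1,4-DCB, whose own controls had 27 to 90.5 CPM. The difference was 2.41 on the log2 scale, with a 95% interval of 1.39 to 3.43 (edgeR adjusted p = 0.00319). Differences of the same kind were found for Hlf (1.07, 95% interval 0.55 to 1.58, edgeR adjusted p = 0.0163), Bhlhe40 (0.86, 0.50 to 1.23, adjusted p = 0.00319), Nfil3 (-0.98, -1.43 to -0.53, adjusted p = 0.00919) and Cdkn1a (-1.70, -2.41 to -1.002, adjusted p = 0.0028).

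Of 59 cell cycle probes, 6 passed as lower in this difference and 53 did not pass, where 0.856% of all probes passed as lower. Top2a had 0.906 to 3.82 CPM with 1,2-DCB, against 6.23, 6.57, 8.84, 14 and 21.4 CPM with 1,4-DCB, whose controls had 4.58 to 10.3 CPM. The difference of changes was -2.25, with a 95% interval of -3.18 to -1.32 (edgeR adjusted p = 0.0028). For Prc1 it was -2.53 (-3.52 to -1.53, adjusted p = 0.00274), and for Hist1h3a -1.56 (-2.18 to -0.94, adjusted p = 0.00274). Lcn2 differed by 1.81 (1.12 to 2.51, edgeR adjusted p = 0.00264), with 47 to 99.6 CPM with 1,2-DCB and 17.3 to 31.6 CPM with 1,4-DCB. For the interferon genes the difference did not pass: in Isg15 it was -0.46, with an interval of -0.87 to -0.04 (edgeR adjusted p = 0.384), and in Rsad2 -0.87, with an interval of -1.45 to -0.29 (adjusted p = 0.162). For Cd74 it was -0.89 (-1.64 to -0.13, adjusted p = 0.333).

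Markers of fibroblasts, macrophages and adipocytes had 0 calls in the same comparison by edgeR. All 10 fibroblast probes (median log2 difference -0.72), all 9 macrophage probes (-0.38) and all 4 adipocyte probes (-2.58) had a negative difference, however. Fibroblast markers summed to 1075 to 1933 CPM with 10 ppm 1,2-DCB, against 1290 to 2272 CPM in its controls, and to 1459 to 3347 CPM with 10 ppm 1,4-DCB, against 1207 to 1725 CPM in its controls. Adipocyte markers summed to 5.04 to 247 CPM with 1,4-DCB, against 7.11 to 16.2 CPM in its controls, a median log2 change of 3.31 over the 4 probes. The part of these cells in the isomer differences was not tested.

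Lungs and ovaries of the same 25 animals show how far the heart changes were shared. In its own fit, lung had 190 of 2756 probes called (6.89%) and ovary 217 of 2713 (8%). Of the 80 heart probes, 33 passed in the lung and 12 of 79 in the ovary. In lung, Dbp averaged 401 ± 101 CPM in exposed animals and 71.9 ± 39.9 CPM at 0 ppm (SD, n = 15 and 10), a log2 change of 2.44 ± 0.36 (SE, edgeR). Log2 changes in lung were 1.37 for Hlf, 0.81 for Bhlhe40, -1.07 for Nfil3, -1.08 for Cdkn1a and -0.61 for Isg15. The change in heart minus that in lung, with the animal as a block, did not pass for Dbp (-0.38, edgeR adjusted p = 0.231).

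Heart and lung differed for 17 of 2615 probes (0.65%), of which 8 were among the 80, and for 11 without animal 301 or control animal 5. The 80 heart probes were picked by their change in these same hearts, so their number among the differences is no separate result. The 17 included Prc1, with a log2 change in heart minus lung of -1.33 (edgeR adjusted p = 0.00984), and Top2a, with -1.27 (adjusted p = 0.00242). In lung itself the changes were -0.04 for Prc1 and 0.11 for Top2a. The calls of both held in each of 25 fits that left out 1 animal.

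Heart and ovary differed for 47 of 2622 probes (1.79%), of which 21 were among the 80 heart probes, an overlap that again rests on the same heart values. The count of 47 was unstable, at 3 without control animal 5, 10 without control animal 4 and 80 without the animal as a block. Dbp changed more in heart by 1.37 (edgeR adjusted p = 2.1e-05), as its log2 change in ovary was 0.82 ± 0.17. Hlf (log2 change in ovary 0.85, edgeR adjusted p = 0.00261), Cdkn1a (-1.39, adjusted p = 0.00166) and Col4a1 (-0.50, adjusted p = 0.0124) also passed in ovary itself. Their differences between heart and ovary did not pass (edgeR adjusted p = 0.997, 0.48 and 0.80). Bhlhe40 had a log2 change of -0.29 in ovary, and the difference was 0.94 (edgeR adjusted p = 0.0437), a call lost in 18 of 25 fits that left out 1 animal. The difference was -1.43 for Top2a (adjusted p = 0.0192) and -1.5 for Prc1 (adjusted p = 0.0297), with changes in ovary itself of 0.20 and 0.12 that did not pass. Those calls were lost in 1 and 2 of the 25 fits. Igf2bp2, which encodes an RNA-binding protein, had a log2 change of -0.40 in heart and 0.24 in ovary, and the difference of -0.68 (edgeR adjusted p = 0.000325) held in each of the 25 fits. The joint fits scale both tissues together, so a difference need not equal the heart change minus the other tissue's own change.

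**Figure D5:**
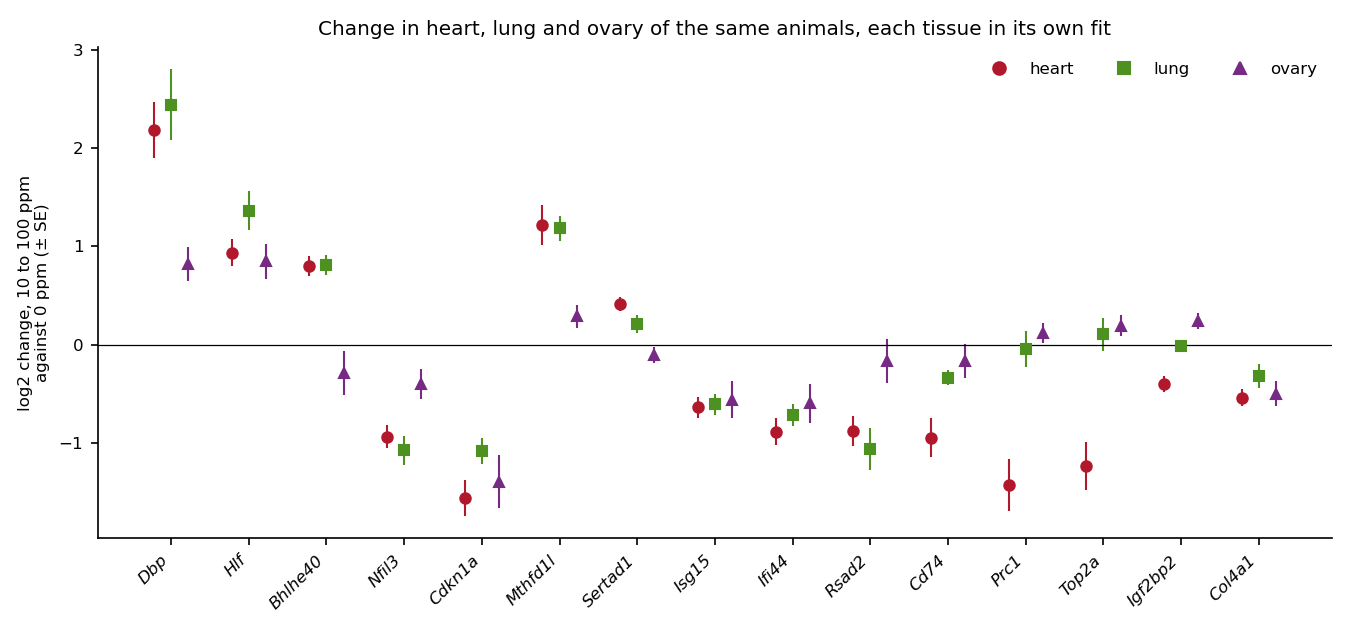
Pooled log2 change of 10, 30 and 100 ppm 1,2-DCB against 0 ppm for 15 genes in heart, lung and ovary of the same animals, each tissue in its own fit; bars are standard errors. Dbp is higher in each tissue (2.18 in heart, 2.44 in lung, 0.82 in ovary), whereas Prc1 and Top2a are lower in heart (-1.43 and -1.23) and near 0 in lung (-0.04 and 0.11) and ovary (0.12 and 0.20).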

How the data were processed

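Counts of reads per TempO-Seq probe, 1 column per library, were used as the authors deposited them; per the submitters' processing notes the tool was Bowtie 1.3.1, and its target sequences and genome build are not given in the sources used here. For 59 probes the deposited counts were whole multiples of a factor from 2 to 21, read here as an attenuation adjustment, and these probes held a median of 32% of a library's counts in the 25 hearts. Groups follow the labels, and each library is the animal its label numbers. The members and gene lists were chosen with earlier results of these data known.

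Of 3154 probes, 2454 passed edgeR's filterByExpr over the 12 groups of the 72 heart libraries, all fitted together without covariates (R 4.3.3, edgeR 4.0.16, TMM scaling, quasi-likelihood test, two-sided). Benjamini-Hochberg adjustment ran over all probes of a contrast, and a probe passed under 0.05. The SE of a log2 change is its size divided by the square root of its F statistic. CPM used the effective library size. Exposed hearts had a median of 10.32 M deposited counts and hearts at 0 ppm 10.76 M, so a probe at 1 CPM rests on roughly 10 counts. Reads carry no molecular identifiers, and errors come from the spread between animals. Of 75 same-group pairs, 0 held equal counts and the lowest chi-square per degree of freedom was 8.84, so none was a repeat.

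The trend is the slope over log10 concentration among the 15 exposed hearts. Tissues were compared as the interaction of tissue and exposure, with the animal as a block, since the labels number the animals alike in each tissue. Named genes are up to 12 largest rises and falls past the threshold whose mean was 20 counts or more, up to 6 per direction in the trend and single concentrations, and members of the lists, those that passed first by smallest p. The probe with the smallest p stands for a gene, and some genes are not reported here. Alternatives were RLE scaling, no filter, fewer libraries in the fit, attenuation factors undone, a Dbp covariate, DESeq2 1.42.0 and each animal left out; a reference of 1 ppm and handling of fat content were added after seeing the data. The scripts were checked on simulated data. Promoter windows of 250 bases came from RefSeq on GRCm38.p6, where 56 of 77 genes of called probes had an entry, and the figures used matplotlib 3.10.9.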

Additional observations from a re-analysis of the deposited data

Results flagged for a closer look

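The 0, 10, 30 and 100 ppm groups were searched in 33 probes for 1 animal far from the rest of its group, where chance picks about 1 group in 20. Among hearts at 0 ppm, control animal 4 stood out for Tgtp1 with 43.8 CPM (next 15.7 CPM), Tgtp2 with 221 CPM (next 89.8 CPM), H2-aa with 204 CPM (next 49.3 CPM), H2-q6 with 33.4 CPM (next 11 CPM) and Cd74 with 2242 CPM (next 628 CPM). Control animal 9 stood out for Col4a1 with 435 CPM (next 314 CPM), and control animal 2 was low in Nme1, with 296 CPM where the next had 341 CPM. At 10 ppm, animal 203 was high in H2-aa with 42 CPM (next 24.2 CPM), Cd74 with 559 CPM (next 333 CPM) and Oasl1 with 3.00 CPM (next 1.72 CPM), and animal 202 was low in H2-q6 with 3.38 CPM (next 5.15 CPM).

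Between isomers at 10 ppm, the change with 1,2-DCB minus that with 1,4-DCB differed from 0 by edgeR for the named genes Dbp (2.41), Hlf (1.07), Bhlhe40 (0.86, and 0.90 in its second probe), Lcn2 (1.81), Nfil3 (-0.98), Cdkn1a (-1.70), Prc1 (-2.53), Top2a (-2.25) and Fam64a (-2.44, adjusted p = 0.041), on the log2 scale. Between tissues, the change in heart minus that in lung differed for Prc1 (-1.33) and Top2a (-1.27). The change in heart minus that in ovary differed for Dbp (1.37), Mthfd1l (0.89), Bhlhe40 (0.94, and 0.97 in its second probe), Sertad1 (0.48), Fam64a (-1.59), Prc1 (-1.5), Top2a (-1.43), Oasl1 (-0.95) and Igf2bp2 (-0.68). Of the ovary differences, those of Mthfd1l, Sertad1, Fam64a and Oasl1 were lost in 14, 9, 11 and 19 of 25 fits that left out 1 animal.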

How the results depend on the processing

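The pooled count of 80 of 2454 probes was 82 with RLE scaling, 79 of 3059 without a filter, 78 of 2458 with attenuation factors undone, 98 with an adipocyte covariate and 99 with DESeq2. It was 49 of 2292 from the 25 libraries alone and 56 of 2340 from libraries of the same compound. It was 51 with 1 ppm in place of 0 ppm hearts and 18 with Dbp as a covariate. Under that covariate 10 ppm had 1 call, 30 ppm 2 and 100 ppm 26, of which 5 were among the 18 of the main fit at 100 ppm. The covariate fixes Dbp itself, whose values then were -0.002114 pooled, -0.002383 at 10, -0.002315 at 30 and -0.001645 at 100 ppm. It turned Tcap to -0.3991. The probe 0610010K14RIK was -0.01391 with 1 ppm as the reference. Of the 80 probes, 38 passed against 1 ppm; genes described above that did not include Rsad2, Usp18, Irf7, Herc6, H2-aa, Cd74, H2-q6, Lyz2, C1qb, C1qc, Bub1, Cenpe, Cdc20, Pbk, Hist1h2bp, Col4a2, Fas, G0s2, Nme1, Atg3, Ccdc85b, Igf2bp2 and Egfr. With libraries of the same compound alone, 30 ppm had 28 and 100 ppm 11 calls; with the 25 libraries alone, 100 ppm had 11. Without the 22 of all 72 hearts high in adipocyte markers, 7 of them among the 25, the pooled count was highest of these settings. Genes of the 80 probes that lost their pooled call there include Cenpe, Plk1, Cdc20, Zbp1, Irgm2, Gbp6, Ets1, Col4a2, Ccdc85b and Atg3. In the same fit 100 ppm had 7 calls and the edgeR trend 0. In that trend 4.73% of probes had an unadjusted p under 0.05 by edgeR. DESeq2, with all hearts, called 1 in the trend, and step scores that include 0 ppm called 13. Higher calls were 17.5% of the 80, 26.5% from the 25 libraries alone and 25.5% against 1 ppm.

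Leaving out each animal in turn gave 38 to 94 pooled calls, 1 to 1 in the trend, 12 to 32 at 10 ppm, 24 to 61 at 30 ppm, 7 to 21 at 100 ppm, 21 to 47 for 250 minus 100 ppm, 13 to 35 between isomers, 11 to 20 for heart minus lung and 3 to 66 for heart minus ovary. The pooled 38 was without control animal 4. The lowest counts at 10, 30 and 100 ppm were without animals 202 (12), 305 (24) and 403 (7). At 10 ppm 15 were left without 204, and at 100 ppm 8, 10 and 11 without 401, 402 and 404. For 250 minus 100 ppm 21, 25 and 26 were left without 402, 404 and 503. Between isomers 17 and 18 were left without 1,2-DCB animals 201 and 204, and 17 and 13 without 1,4-DCB animals 202 and 203. Heart minus lung had 11 without 301 or control 5, and heart minus ovary 3 without control 5, 10 without control 4 and at least 15 without any other animal. Of the 80 probes, 35 passed in all 25 fits.

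Pairing of tissues by animal comes from the labels; without the animal as a replicate block, heart minus lung had 15 and heart minus ovary 80 calls. Exposure groups share no animal number, so the pooled comparison has no block.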

Other observations

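Egfr, Ets1 and Fpr1 passed as lower and belong to no group described above; they were chosen after their values were seen. Egfr, the receptor of epidermal growth factor, averaged 5.92 ± 1.38 CPM in exposed hearts and 8.63 ± 1.70 CPM at 0 ppm (SD, n = 15 and 10), a log2 change of -0.56 (edgeR adjusted p = 0.0196). Ets1, a transcription factor of endothelial and lymphoid cells, had a log2 change of -0.36 (edgeR adjusted p = 0.0384), a call lost in 11 of 25 fits that left out 1 animal. Fpr1, the formyl peptide receptor of neutrophils, showed how much 1 animal can carry: its log2 change was -2.45 (edgeR adjusted p = 0.0323) with control animal 4, which held 17.1 CPM, and -0.12 without it (adjusted p = 0.985).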
